A study of Caenorhabditis elegans with 20 samples.

Results

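Neuropeptide genes of *C. elegans* are described here in 2 families, the FMRFamide-like peptide genes (*flp*) and the other neuropeptide-like protein genes (*nlp*). The members were chosen by name alone, as the genes whose symbol in the WormBase name table used here starts with *flp-* or *nlp-*, which gave 31 *flp* genes and 71 *nlp* genes, 102 of the 27375 genes in the deposited tables. A further 7 genes of the tables have an *nlp* symbol only in RefSeq, *nlp-10* and *nlp-99* among them, and are not counted below. RNA was sequenced from whole L4 hermaphrodites, the last larval stage before adulthood, grown from arrested L1 larvae on bacteria at 20 °C in air. There were 5 genotypes with 4 libraries each, made from poly(A)-selected RNA. In the first, strain OR3350, *egl-9(sa307)* and *hif-1(ia4)* mutations were combined with *unc-119(ed3)* and the integrated *odIs131[hif-1::gfp, unc-119(+)]* transgene, a single line made from a genomic fosmid. The others were *egl-9(sa307)* mutants, animals that carry both *egl-9(sa307)* and *hif-1(ia4)* without the transgene, *hif-1(ia4)* mutants and the wild type, N2. EGL-9 is the oxygen-dependent hydroxylase that marks the transcription factor HIF-1 for destruction, so loss of *egl-9* leaves HIF-1 switched on despite normal oxygen, and *hif-1(ia4)* is a null allele. Libraries were sequenced at 2 facilities, and which library went to which was not stated.

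The values analysed were the authors' mean log2 CPM (the count of a gene scaled to a library of standard size, on a log2 scale), 1 value for each gene over the libraries that were fitted together. The value of every gene was the same in all 4 tables. How many libraries stand behind it was not stated, and the *hif-1(ia4)* libraries may not be among them. As a pooled mean it carries no SD and no number of libraries, and it mixes genotypes in which HIF-1 is active with genotypes in which it is not. The authors' fold changes between genotypes were not used, so no difference between genotypes is described, and a gene with a high level in 1 genotype only would appear here at an intermediate level. Longer transcripts yield more reads, so levels of different genes are given below as CPM per kb of the longest annotated transcript. Without values per library, it cannot be said which neighbours in the order of levels differ beyond the spread between replicates. In RNA of whole animals, a gene active in few cells and a gene with little RNA in many cells cannot be told apart.

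Neuropeptides are cut from larger precursor proteins. A precursor carries 1 or more short peptides flanked by basic residues. Proprotein convertases cut at these residues, carboxypeptidases trim them, and most peptides then receive an amide group at the C-terminus. The peptides are packed into dense core vesicles and, once released, act mostly through G-protein-coupled receptors, often at a distance from the releasing cell. The *flp* precursors hold peptides that end in Arg-Phe-amide and are made mainly by neurons. The *nlp* genes are a mixed group, defined by not belonging to the *flp* or insulin-like families, and some of them are active in the epidermis or the intestine.

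The *flp* genes lay mostly within a narrow range of moderate levels, whereas the *nlp* genes were spread more widely. The median level was 13.6 CPM per kb for the *flp* genes, with quartiles of 8.48 and 20.1 CPM per kb. The *nlp* genes had a median of 8.97 CPM per kb, with quartiles of 2.37 and 17.2 CPM per kb. For the other 19094 protein-coding genes of the tables the median was 5.92 CPM per kb, with quartiles of 0.529 and 23.5 CPM per kb. The range between the quartiles was thus 2.37-fold for *flp* genes and 7.24-fold for *nlp* genes. Within 2-fold of the median of their own family lay 22 *flp* genes (71.0%) and 27 *nlp* genes (38.0%). Above the median of all 19196 protein-coding genes, 5.95 CPM per kb, were 27 *flp* genes (87.1%) and 39 *nlp* genes (54.9%). No *flp* gene and 9 of 71 *nlp* genes reached the 90th percentile of protein-coding genes, 60.1 CPM per kb. By its definition, 1920 of all 19196 protein-coding genes reached this level. These are counts over genes in pooled data, and no test was applied to them.

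**Figure D1:**
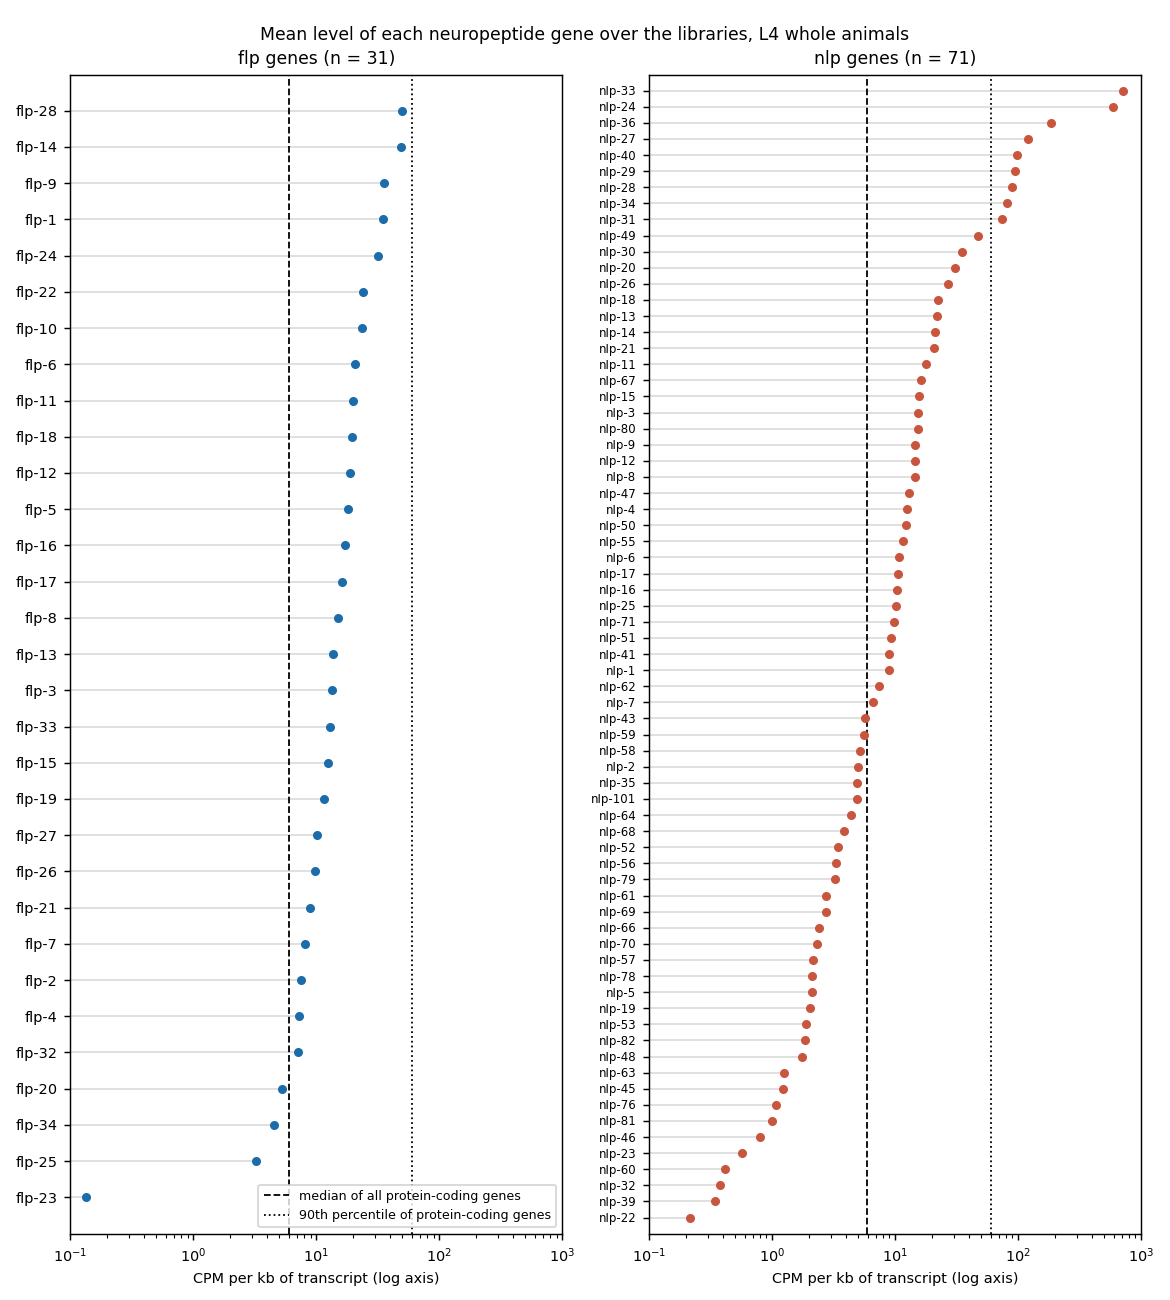
Each point is 1 gene and gives its mean level over the libraries, as CPM per kb of transcript on a log axis, for 31 *flp* genes on the left and 71 *nlp* genes on the right. The dashed line is the median of all protein-coding genes (5.95 CPM per kb) and the dotted line their 90th percentile (60.1 CPM per kb), which is passed by 9 *nlp* genes from *nlp-31* up to *nlp-33* and by no *flp* gene.

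Most members were measured above a low level. A mean of at least 0 on the log2 CPM scale, that is 1 CPM, was found for 30 of 31 *flp* genes (96.8%) and 56 of 71 *nlp* genes (78.9%), against 69.9% of the other protein-coding genes. The exception among the *flp* genes was *flp-23*, with a mean log2 CPM of -3.71. The next lowest *flp* genes on this scale were *flp-25* at 1.06 and *flp-20* at 1.40 log2 CPM, each at more than 1 log2 CPM. Among the *nlp* genes the limit fell within a continuous series: *nlp-70* and *nlp-52* were just below it, at -0.05 and -0.04 log2 CPM, and *nlp-82* and *nlp-5* just above it, both at 0.13 log2 CPM. Together the members made up 0.146% of the summed CPM of all genes, of which the *flp* genes contributed 0.0324% and the *nlp* genes 0.114%.

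Among the *flp* genes, *flp-28* and *flp-14* were at the top, at 50.1 and 48.7 CPM per kb. *flp-9* followed at 35.6 CPM per kb. *flp-1*, whose peptides shape locomotion and come mainly from the AVK interneurons, was at 34.6 CPM per kb. These levels differ by less than 2-fold, and 81.2 to 87.9% of protein-coding genes lay below the first 5 of the family. The fifth was *flp-24*, at 32.0 CPM per kb, which is active in the sleep-promoting neuron ALA. Then came *flp-22* (24 CPM per kb), *flp-10* (23.4 CPM per kb) and *flp-6* (20.4 CPM per kb). *flp-11*, the main sleep-promoting peptide gene of the neuron RIS, was at 19.7 CPM per kb, *flp-18* at 19.4 CPM per kb, *flp-12* at 18.9 CPM per kb and *flp-5* at 18.2 CPM per kb. No single *flp* gene dominated: the highest held 9.48% of the summed CPM per kb of the family and the first 12 held 65.3%.

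At the lower end of the *flp* family, 1 gene stood apart from the rest. *flp-32* was at 7.03 CPM per kb, *flp-20* at 5.22 CPM per kb, *flp-34* at 4.54 CPM per kb and *flp-25* at 3.25 CPM per kb. From *flp-28* down to *flp-25* the levels spanned 15.4-fold. *flp-23* was at 0.134 CPM per kb, where 12.2% of protein-coding genes were lower. Its mean of -3.71 log2 CPM is close to the lowest value in the tables, -4.09 log2 CPM, which 161 genes share and which the prior count of the fit sets, so no fold against it is given. Between the other neighbours in the order of the family the largest step was 1.40-fold.

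Several *flp* genes are active in neurons that sense gases, though the levels below are those of whole animals. Both *flp-17* and *flp-10* are active in BAG neurons, which respond to falling oxygen and rising carbon dioxide, *flp-19* in BAG and URX, and *flp-8* in URX, which responds to rising oxygen. They were at 16.2 CPM per kb (*flp-17*), 23.4 CPM per kb (*flp-10*), 11.5 CPM per kb (*flp-19*) and 14.9 CPM per kb (*flp-8*). All of these values lay between the quartiles of the family or just above the upper one. *flp-18* and *flp-21* encode ligands of NPR-1, the receptor that sets aggregation and responses to oxygen, and were at 19.4 and 8.92 CPM per kb. Among genes linked to sleep, *flp-13* of the neuron ALA was at 13.6 CPM per kb, the median of the *flp* family. *nlp-8*, also of ALA, was at 14.4 CPM per kb, close to it. *nlp-22*, a sleep-promoting gene of the interneuron RIA, was the lowest of all *nlp* genes at 0.217 CPM per kb.

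Genes known from the epidermis and the intestine were prominent at the upper end of the *nlp* family. *nlp-33*, an antimicrobial peptide gene of the epidermis, was at 717 CPM per kb, and 99.0% of protein-coding genes lay below it. *nlp-24*, which encodes opioid-like peptides, was at 595 CPM per kb. *nlp-36* came next at 187 CPM per kb, after the largest gap in the family, 3.18-fold. *nlp-27* followed at 120 CPM per kb. *nlp-40*, whose peptide is released from the intestine and drives the expulsion step of defecation, was at 98.4 CPM per kb. *nlp-29*, an epidermal gene known for its induction by fungal infection and wounding, was at 95.0 CPM per kb. *nlp-28* (89.1 CPM per kb), *nlp-34* (81.3 CPM per kb) and *nlp-31* (73.9 CPM per kb) were close to it. *nlp-49* (47.7 CPM per kb), *nlp-30* (34.8 CPM per kb) and *nlp-20* (30.6 CPM per kb) completed the 12 highest. *nlp-33* and *nlp-24* alone held 49.9% of the summed CPM per kb of the *nlp* family, and the first 12 held 82.5%.

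All 7 epidermal antimicrobial genes on the list used here (*nlp-27* to *nlp-31*, *nlp-33* and *nlp-34*) were among the 12 highest *nlp* genes, at 34.8 to 717 CPM per kb with a median of 89.1 CPM per kb. This list was drawn up with earlier results of these data known, so the count is a description only. The 11 genes from *nlp-24* to *nlp-34* together held 59.7% of the summed CPM of the *nlp* family. 10 of them were above the median of protein-coding genes, and the exception was *nlp-32*, at 0.381 CPM per kb. Without these 11 genes, the median of the remaining 60 *nlp* genes was 5.64 CPM per kb, and 29 of them were above the median of protein-coding genes. This span of numbers was not planned and takes in *nlp-33* and *nlp-24*, the highest of the family. A lower median without the span follows from that choice. Reads from closely related members of this group could have been divided between them or left out, depending on how reads with several matches were counted, which was not stated. Markers of neurons, body wall muscle, intestine, epidermis, germ line and sperm all had a mean of at least 1 CPM, with the collagen genes *rol-6* and *dpy-7* of the epidermis at 161 and 26.0 CPM per kb and the neuronal synaptobrevin gene *snb-1* at 145 CPM per kb. The 6 neuronal markers ranged from 2.12 CPM per kb (*unc-10*) to that level, with a median of 10.3 CPM per kb.

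Several other *nlp* genes with known roles in neurons were at moderate levels, although *nlp-22* was not. *nlp-14* and *nlp-15*, the orcokinin-like genes, were at 21.2 and 15.8 CPM per kb. *nlp-12*, which encodes cholecystokinin-like peptides made by the stretch-sensing neuron DVA, was at 14.6 CPM per kb. Of the genes linked to egg laying, *nlp-3* was at 15.4 CPM per kb and *nlp-7* at 6.61 CPM per kb. The 5 lowest *nlp* genes were *nlp-23* (0.568 CPM per kb), *nlp-60* (0.413 CPM per kb), *nlp-32* (0.381 CPM per kb), *nlp-39* (0.345 CPM per kb) and *nlp-22* (0.217 CPM per kb). *nlp-22* and *nlp-39*, at -3.79 and -3.59 log2 CPM, were close to the lowest value in the tables, so the span of the family is not given as a fold. Genes with high numbers in their names were lower, in a split that was not planned. The 27 genes from *nlp-50* upwards had a median of 3.32 CPM per kb. The 44 genes from *nlp-1* to *nlp-49*, which include *nlp-24* to *nlp-34*, had one of 14.5 CPM per kb. Of these 27 later-numbered genes, 7 were above the median of protein-coding genes, with *nlp-67* highest of the 27 at 16.4 CPM per kb. The RefSeq-named *nlp-99*, which is not one of the 27, was higher, at 4.73 log2 CPM per kb against 4.03 for *nlp-67*. Among the earlier-numbered ones, 32 of 44 were above the median of protein-coding genes.

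The genes that make and release the peptides had a higher median level than either precursor family, and the receptor genes a lower one. All 13 genes for processing and release had a mean of at least 1 CPM, with a median of 26.9 CPM per kb. The chaperone gene *sbt-1* (63.3 CPM per kb), the carboxypeptidase E gene *egl-21* (58.7 CPM per kb) and the convertase gene *bli-4* (56.3 CPM per kb), which also acts in the epidermis, were highest. *egl-3*, the convertase of most neuropeptide precursors, was at 38.7 CPM per kb. The amidation genes *pgal-1*, *pghm-1* and *pamn-1* were at 47.3, 26.9 and 23.5 CPM per kb. *unc-31*, required for release of dense core vesicles, was the lowest of the list, at 1.77 CPM per kb. The 94 receptor genes were taken by name: all symbols starting with *npr-*, *frpr-* or *dmsr-*, and a short list of others. Of these 94 receptor genes, 61 (64.9%) had a mean of at least 1 CPM, against 70.0% of all protein-coding genes. Per kb, the receptor genes had a median of 1.01 CPM per kb. Above the median of protein-coding genes were 2 of them, *npr-5* (8.85 CPM per kb) and *trhr-1* (8.58 CPM per kb).

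For ligands with a known receptor, the ligand gene was at the higher level in the pairs examined. The NPR-1 ligand genes *flp-18* and *flp-21* were given above, and *npr-1* was at 0.306 CPM per kb. *flp-10* and *flp-17* act through EGL-6, whose gene was at 1.21 CPM per kb. *nlp-40* acts through AEX-2, and *aex-2* was at 1.07 CPM per kb. *nlp-12* acts through CKR-2, and *ckr-2* was at 2.70 CPM per kb. These pairs were picked with the levels known. Only 2 of 94 receptor genes were above the median of protein-coding genes, so the order within pairs adds little to the group medians. The levels do not show how much receptor protein was present.

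**Figure D2:**
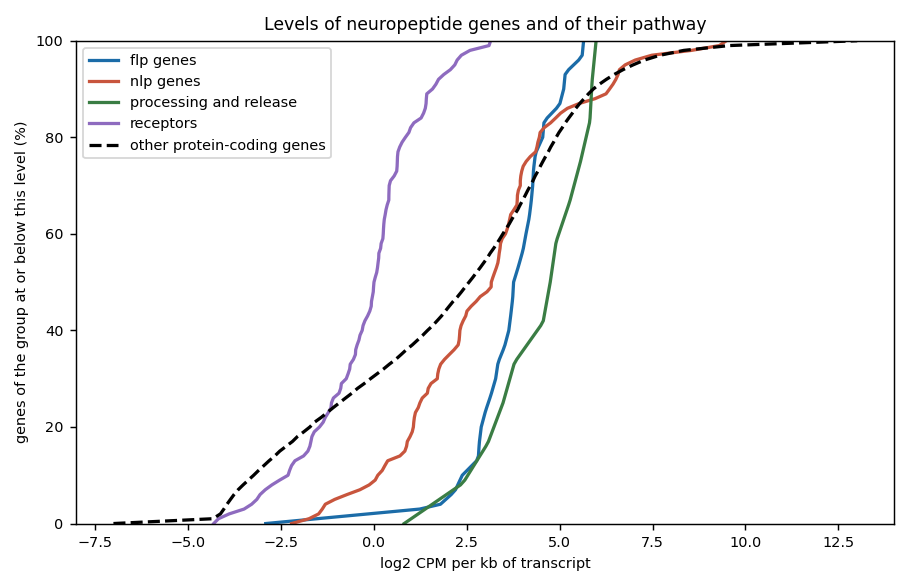
Each line gives, for a level in log2 CPM per kb on the horizontal axis, the share of a group's genes at or below it: 31 *flp* genes, 71 *nlp* genes, 13 genes for processing and release, 94 receptor genes and, dashed, 19094 other protein-coding genes. The *flp* line is steep around its median of 3.76, the *nlp* line runs on beyond 9 at the upper end, and the receptor line lies to the left with a median of 0.01.

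Neuropeptide genes were short and of simple structure. The longest annotated transcript had a median length of 633 bases for *flp* genes (422 to 973 bases) and of 523 bases for *nlp* genes (240 to 1668 bases), against 1186 bases for the other protein-coding genes. The median coding length corresponded to 95 codons for *flp* genes and 88 codons for *nlp* genes, stop codon not counted, against 334 codons for the other protein-coding genes. The median number of exons was 3 in both families and 5 in the other protein-coding genes. The gene with the most exons was *flp-18*, with 8, and *nlp-39* had 1 exon. Across the genes of a family, longer transcripts tended to have a higher CPM (Spearman's rho 0.35 over 31 *flp* genes and 0.23 over 71 *nlp* genes), as a description over genes that share the same libraries. A single annotated transcript was found for 20 *flp* genes (64.5%) and 57 *nlp* genes (80.3%), against 69.3% of the other protein-coding genes. Exon bases were shared with another protein-coding gene by 15 of the 102 members. The same share over all protein-coding genes is not given here. Examples on the opposite strand were *nlp-24* (24 bases with *glb-15*), *flp-11* (17 bases with *tmem-135*) and *nlp-36* (11 bases with *dars-1*). The longest overlap was 88 bases, of *nlp-46* with T28H10.1 on the opposite strand. *nlp-76* shared 67 bases with *nhr-17* on the same strand, where counting by strand would not tell them apart. Whether the counting used strand was not stated, so reads in these bases cannot be assigned with certainty.

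The *flp* genes were found most often on the X chromosome. It holds 13 of 31 *flp* genes (41.9%) and 19 of 71 *nlp* genes (26.8%), and 13.7% of all protein-coding genes of the tables (coordinates from WBcel235, Ensembl release 115). The *nlp* genes on chromosome V numbered 18 (25.4%), close to the 24.6% of all protein-coding genes there. On X the median level was 13.4 CPM per kb for *flp* genes, 4.39 CPM per kb for *nlp* genes and 3.78 CPM per kb for all protein-coding genes. On V the *nlp* genes had a median of 24.2 CPM per kb, where all protein-coding genes had 1.60 CPM per kb, and this chromosome carries *nlp-24*, *nlp-33* and the group around *nlp-29*. The counts per chromosome were not tested, and genes that lie together are not independent of each other.

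**Figure D3:**
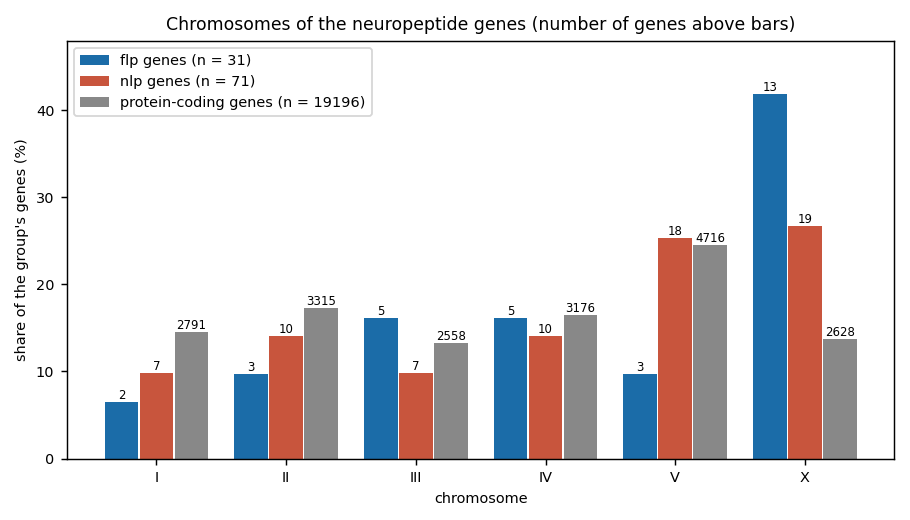
Bars give the share of each group's genes on each chromosome in percent, for 31 *flp* genes, 71 *nlp* genes and all 19196 protein-coding genes of the tables, which include the members, and the number above a bar is the number of genes. On X the bars are at 41.9% for *flp*, 26.8% for *nlp* and 13.7% for all protein-coding genes.

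In 4 places members lay within 10 kb of each other, which took in 15 of the 102 genes. On chromosome V, from 3978825 to 3989770, *nlp-34*, *nlp-31*, *nlp-30*, *nlp-29*, *nlp-28* and *nlp-27* stand within 10.9 kb with *nlp-34* alone on the minus strand. Their levels lay within 3.45-fold of each other, from 34.8 CPM per kb for *nlp-30* to 120 CPM per kb for *nlp-27*, and together they held 15.9% of the CPM of the *nlp* family. *nlp-30* has the longest annotated transcript of the 6, at 714 bases. By CPM alone, without length, the 6 genes ran from 21.5 CPM (*nlp-34*) to 38.0 CPM (*nlp-27*). Elsewhere on V, from 19606180 to 19614534, *nlp-25* was at 10.2 CPM per kb and *nlp-26* at 26.7 CPM per kb. This order rests on their annotated lengths, 1668 bases for *nlp-25* and 390 bases for *nlp-26*. Without length it was reversed, at 17.0 CPM for *nlp-25* and 10.4 CPM for *nlp-26*.

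Neighbours on X were less alike. From 2337600 to 2344766 lie *nlp-45*, *nlp-22*, *nlp-23* and *nlp-2*, all on the minus strand, and their levels were further apart, with *nlp-22* close to the lowest value in the tables. *nlp-2* held 75.3% of the CPM of these genes, at 4.99 CPM per kb, while *nlp-45* was at 1.22, *nlp-23* at 0.568 and *nlp-22* at 0.217 CPM per kb. *nlp-22* and *nlp-23*, which lie next to each other, are both among the 5 lowest of the family. From 10087314 to 10095245 lie *flp-28*, *flp-3* and *flp-2*, also on the minus strand. *flp-28*, the highest *flp* gene, was at 50.1 CPM per kb, *flp-3* at 13.4 CPM per kb and *flp-2*, a gene linked to arousal, at 7.44 CPM per kb, so that the highest and lowest of this group differed by 6.74-fold.

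**Figure D4:**
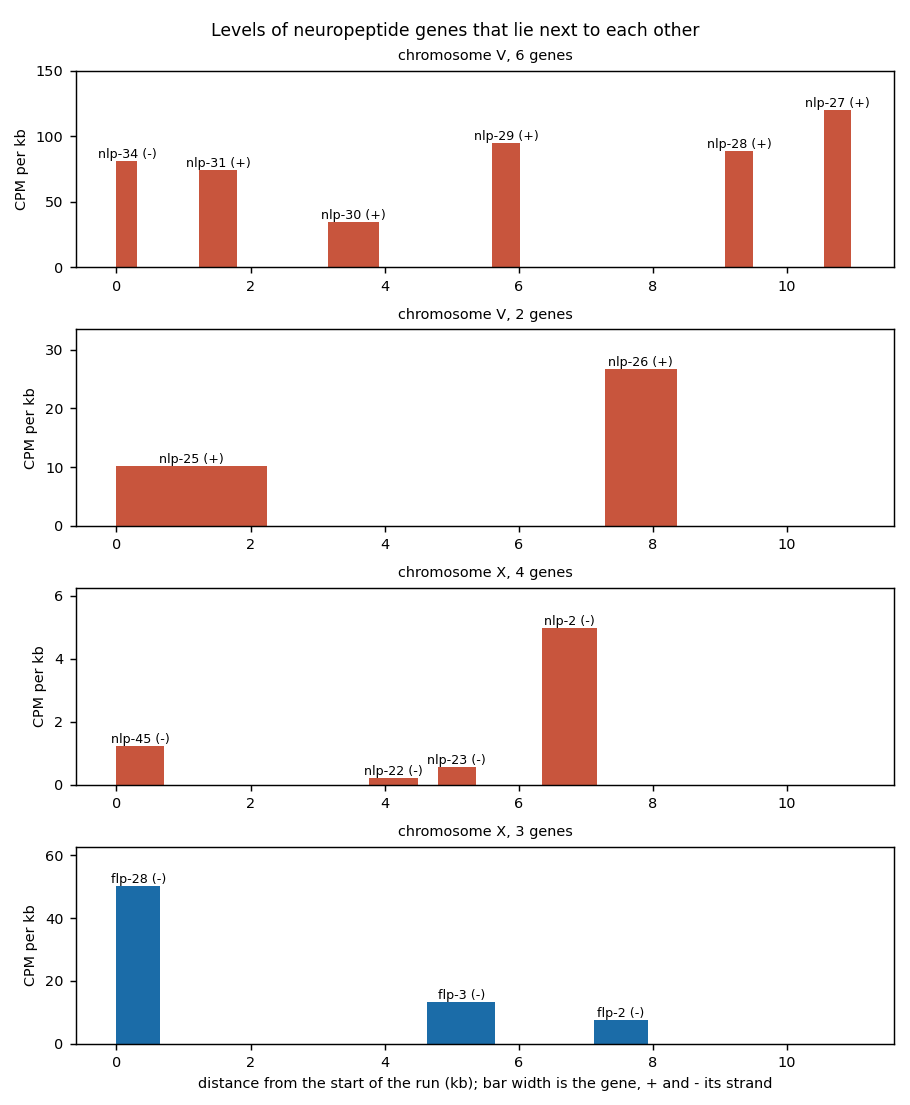
Each panel is 1 of the 4 places where members lie within 10 kb of each other, with the distance from its start in kb on the horizontal axis and the level in CPM per kb on the vertical axis; each bar is a gene, as wide as the gene, with its strand in brackets. The 6 *nlp* genes on V lie between 34.8 and 120 CPM per kb, while *nlp-2* on X stands at 4.99 CPM per kb beside *nlp-22* at 0.217 CPM per kb.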

How the data were processed

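Reads of 50 nt were mapped by the authors to *C. elegans* genome WS245 and counted per gene with STAR 2.5.1a, then normalized and fitted by the authors in edgeR, whose version is not known here. The log2 values analysed are the deposited values per gene from that fit, read as the log2 of a mean CPM, to which the tool adds a small prior count. They were the same in all 4 tables (largest difference 0). The lowest value, -4.09, was shared by 161 genes. The other 4 columns of each table are the authors' genotype comparisons (log2 fold change, likelihood ratio, p-value and FDR) and were not used, so the planned test between genotypes was not made. Depth per library is not in the tables used here, and no interval is given.

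Symbols were found for 25024 of the 27375 gene identifiers. Lengths and positions came from Ensembl release 115 on WBcel235, where 26866 genes and all 102 members were placed. The level per kb is the mean log2 CPM minus the log2 of the longest spliced transcript in kb, computed with Python 3.11.15, numpy 2.4.6 and pandas 2.3.3 and tested on simulated data. No further correction was made for short transcripts. The named genes were, for each family, the 12 highest and 5 lowest per kb, the 2 nearest to 0 log2 CPM on either side, and members of lists by role. The members and lists were chosen with earlier results of these data known. The ligand and receptor pairs, *nlp-67* and the neighbours on the chromosomes were named after their levels were seen. The span from *nlp-24* to *nlp-34* and the split of *nlp* genes at *nlp-50* were not planned. *nlp-37*, on the list of roles, and *nmur-4*, on the list of receptors, were not matched and are not analysed here.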

Additional observations from a re-analysis of the deposited data

How the results depend on the processing

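No paired analysis was possible because the tables hold 1 pooled mean for each gene and no column of a library. For the same reason fits with other size factors, without a filter on low counts and without single replicates were not run, and the search for Arg-Phe-Gly repeats was not run for lack of protein sequences here. The median level of *flp* genes, 3.76 log2 CPM per kb, was 4.56 per kb of coding length, 3.37 without length correction and 3.83 over the members of at least 1 CPM. The median of *nlp* genes, 3.16 log2 CPM per kb, was 3.81, 2.0 and 3.58 under the same alternatives and 3.02 with RefSeq symbols. The *flp* median exceeded the *nlp* median by 0.60 on the log2 scale, by 0.74 per coding length, by 1.37 without length correction, by 0.25 over the members of at least 1 CPM and by 0.74 with RefSeq symbols, so its size depends on these choices while its direction was kept in all of them. Protein-coding genes alone had a median of 2.57 log2 CPM per kb, against 1.49 for all genes. At a limit of 2 log2 CPM, 36 *nlp* genes remained above it (56 at a limit of 0). Of the 12 highest *flp* genes, 10 were also among the 12 highest per coding length, and of the 12 highest *nlp* genes, 11.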

Other observations

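RefSeq symbols named 7 further *nlp* genes that the tables hold under other names, and no further *flp* gene. *nlp-10*, spelled *npl-10* in the name table used for the symbols, had a mean log2 CPM of 3.25, which is 3.90 per kb and above the median of the *nlp* family. *nlp-99* was higher, at 4.17 log2 CPM and 4.73 log2 CPM per kb. The others were lower: *nlp-88* was at 0.36, *nlp-89* at -0.34, *nlp-91* at -0.55, *nlp-119* at -2.85 and *nlp-90* at -3.67 log2 CPM.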
